A study of Mus musculus with 8 samples.

Results

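The genes described here encode ion channels through which calcium and other cations enter cells: transient receptor potential (TRP) channels, the subunits of voltage-gated calcium (Cav) channels, and the Piezo channels. Members were the protein-coding genes of the deposited table whose symbol named a Trpc, Trpm, Trpv or Trpa channel, began with Cacna, Cacnb or Cacng, or was Piezo1 or Piezo2. This rule used names and no measured value, and found 50 genes among the 54532 genes of the table, of which 22046 were protein-coding. There were 22 TRP genes, 26 Cav genes and both Piezo genes.

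RNA-seq was performed on first molar enamel organs of wt C57BL/6 pups that received no treatment, at postnatal day 5 (P5, secretory stage) and postnatal day 12 (P12, maturation stage). Each age had 4 libraries, and each library was a pool of 5 pups, so that the spread between libraries is a spread between pools. The P5 libraries are numbered 1, 3, 4 and 5 and the P12 libraries 1 to 4 in the labels, and values are given in that order below. The study asked how ameloblasts, the epithelial cells that make enamel, move ions as they pass from secretion to maturation, and P5 served as the reference for P12. No litter, pup sex, extraction day or sequencing batch was given, so that these cannot be told apart from the library.

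Secretory ameloblasts lay down a protein matrix, and maturation ameloblasts remove that matrix and move large amounts of calcium and phosphate into the hardening enamel. TRP channels are tetramers of related subunits that open to heat, stretch, lipids or internal calcium, and most let both sodium and calcium pass. A Cav channel opens on depolarization and is built from a pore subunit (α1), with a β subunit inside the cell and an α2δ subunit outside it that bring the pore to the membrane, while γ subunits have more varied partners. Piezo channels open when the membrane is stretched.

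The total count was 16574548 to 20262601 per library at P5 and 17588152 to 22013456 at P12, and a floor of 3 counts corresponded to 0.136 to 0.181 CPM. Normalized counts below are raw counts after TMM scaling to a library of average effective size. All 4 markers of secretion (Enam, Amelx, Mmp20 and Ambn) were lower at P12 and all 4 of maturation (Klk4, Amtn, Odam and Slc24a4) were higher. The labels call the tissue epithelial, yet mesenchymal markers (Col1a1, Col1a2, Col3a1 and Pdgfra) summed to 874008 to 1057675 normalized counts at P5 and 725516 to 969856 at P12. Most of this sum was Col1a1 and Col1a2, and its members were split. Col3a1 rose (log2 3.64), Col1a2 (-0.36) and Pdgfra (-0.99) fell, and Col1a1 (-0.34) was not called. No marker of the 15 cell types checked was at 0 in all libraries. In such bulk tissue, fewer cells of a type and less RNA per cell cannot be told apart. P5 library 5 had the lowest maturation marker sum of its age, and P12 library 4 had the highest secretory sum and the lowest oral mucosa sum of its age. Channel genes whose call changed without either or both of these libraries are named below.

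Of the 50 channel genes, 38 passed the filter on low counts and were tested. At P12, 9 of the 38 rose and 23 fell (edgeR's quasi-likelihood test, adjusted p under 0.05), and 6 were not called. The 32 called genes were 84.2% of those tested, beside 57.2% of the 16440 genes tested in the whole table, of which 28.8% were called higher and 28.4% lower. For 27 of the 38, no P12 library lay within the range of the P5 libraries, which was the case for 52.5% of all genes tested. The median log2 fold change was -0.85 for the 38 channel genes and 0.01 for all genes. Without P5 library 5 and P12 library 4, 9 channel genes rose and 24 fell. Scaling by total count, under which the median of all genes was 0.38, gave 11 channel genes higher and 15 lower, and 8885 genes higher and 2330 lower over the whole table. None of the 32 called genes turned direction under any alternative.

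Among Cav genes, 17 of the 20 tested fell and 2 rose, with a median log2 fold change of -1.15. Several Cav genes are best known from neurons (Cacna1a, Cacna1b, Cacna1i, Cacnb4, Cacng2 and Cacng8 among them), and the neuron markers (Tubb3, Snap25, Syt1, Elavl4, Nefl and Scn9a) moved with them: 4 of the 5 tested fell, and their sum was 1948 to 2940 normalized counts at P5 and 610.9 to 937.7 at P12. Their part in the falls was not tested. Among TRP genes, 6 of the 16 tested rose and 6 fell, with a median of -0.45. Piezo1 rose and Piezo2 was not called. Differences between the families were not tested. The channel genes tested were long, with a median span of 77.18 kb beside 21.21 kb for all genes tested, and the part of gene length in these counts was not tested.

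**Figure D1:**
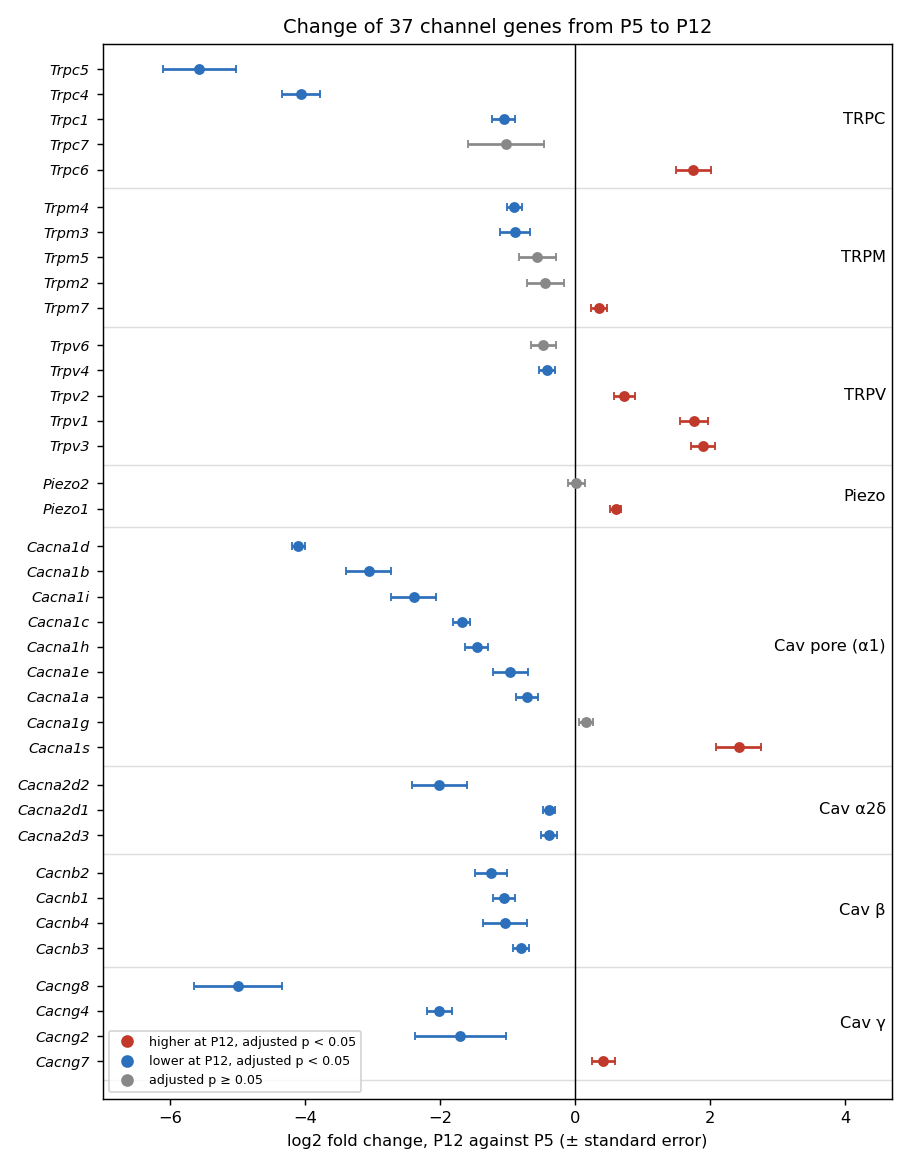
Log2 fold change of 37 tested channel genes at P12 against P5, by family, with bars of 1 standard error from the edgeR fit. Red points (8 genes) rose, blue points (23 genes) fell and gray points (6 genes) were not called, and the Cav pore, α2δ and β panels lie mostly to the left of 0.

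TRPM channels were dominated by Trpm7, a channel fused to a protein kinase that carries magnesium, calcium and zinc and is expressed in most cell types. Trpm7 had 21493, 21122, 19701 and 18259 normalized counts at P5 and 23039, 20799, 28546 and 30231 at P12. P12 libraries 1, 3 and 4 were above all P5 libraries and P12 library 2 was within them, so that the ages overlapped. The rise was 0.35 on the log2 scale (SE 0.12, edgeR adjusted p = 0.029), and it was no longer called in 6 of 18 alternatives, among them those without P5 library 3, 4 or 5 or P12 library 3 or 4 (log2 fold change 0.26 to 0.37). Without both P5 library 5 and P12 library 4 it was 0.21 (adjusted p = 0.078).

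Trpm7 was the highest channel gene per kilobase at both ages, with 1780 normalized counts per kilobase at P5 and 2267 at P12. It made up 92.1% to 94.2% of the summed TRPM level per kilobase at P5 and 96.4% to 97.6% at P12. Trpm6, the close relative of Trpm7 that carries magnesium across kidney and gut epithelium, had 1, 2, 0 and 0 raw counts at P5 and 7, 11, 7 and 8 at P12, and did not pass the filter. Every P12 library was above every P5 library. The ratio was 8.03 with a 95% counting interval of 2.52 to 40.9, and without the filter the log2 fold change was 2.87 in edgeR (adjusted p = 0.011) and 3.03 in DESeq2 (adjusted p = 0.014).

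Trpm4, a channel opened by internal calcium that lets sodium but not calcium pass, had 1054, 1041, 1070 and 1315 normalized counts at P5 and 700.9, 583.9, 617.1 and 498.0 at P12. All P12 libraries were below all P5 libraries, and P5 library 5 stood above the other 3 of its age. Trpm4 fell by 0.90 on the log2 scale (SE 0.11, edgeR adjusted p = 3.6e-05). The log2 ratio of Trpm4 to Trpm7 went from -4.17 ± 0.26 (SD, n = 4) to -5.41 ± 0.40 (SD, n = 4), a difference of -1.24 (exact permutation test, two-sided p = 0.0286, adjusted over 5 paralog pairs 0.0357). This p is the smallest that 4 against 4 libraries allow.

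Trpm3, a heat- and steroid-sensitive calcium channel, had 89.99, 115.2, 65.91 and 82.56 normalized counts at P5 and 47.66, 36.28, 50.97 and 56.22 at P12. It was lower in every P12 library, by -0.89 (SE 0.22, edgeR adjusted p = 0.0043), and at -0.52 missed the threshold under total count scaling. Trpm2, opened by ADP-ribose, ranged from 22.36 to 48.69 at P5 and from 21.26 to 29.12 at P12. Trpm5, the sodium channel of taste cells, ranged from 16.94 to 30.32 and from 13.93 to 18.07. Neither Trpm2 (-0.44, adjusted p = 0.20) nor Trpm5 (-0.56, adjusted p = 0.10) was called by edgeR. Trpm8, the cold receptor, reached at most 31 counts, in P12 library 4, and Trpm1 at most 7, and neither passed the filter.

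**Figure D2:**
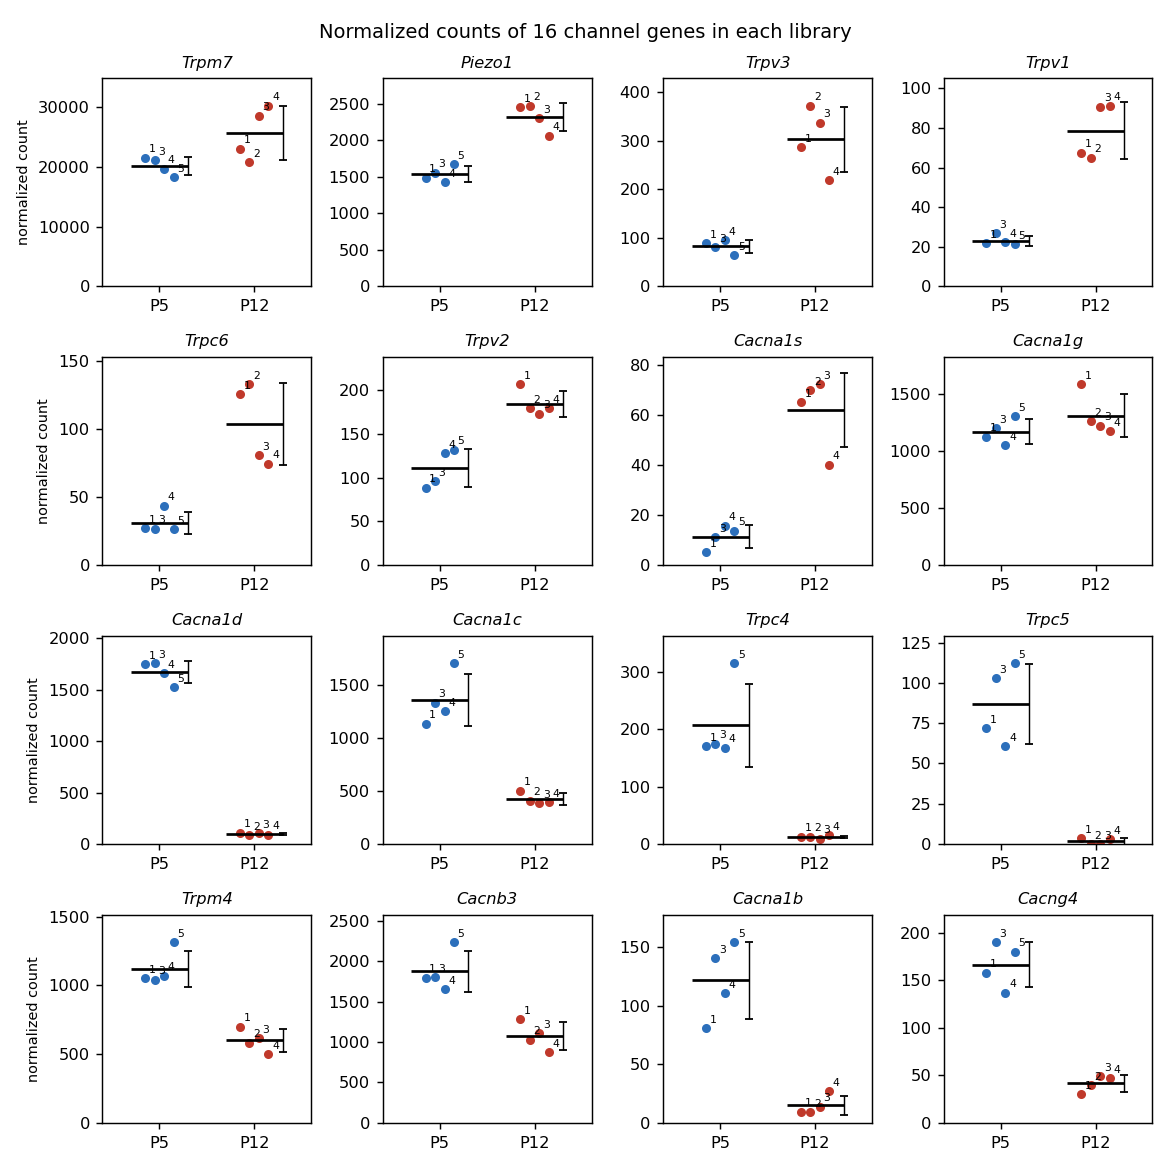
Normalized counts of 16 channel genes in each library, with P5 libraries in blue and P12 libraries in red, the library number beside each point, a line at the mean and a bar of 1 SD. Cacna1d, Trpc4 and Trpc5 sit near 0 at P12, while Trpv3, Trpv1 and Cacna1s have no P12 library within the P5 range.

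TRPV channels were the only TRP family in which more genes rose than fell: 3 of the 5 tested rose and 1 fell. Trpv1, the receptor for capsaicin and noxious heat, and Trpv3, a warmth sensor of keratinocytes, are neighbors on chromosome 11, with 6.14 kb between them, and both rose. Trpv4, which responds to osmotic swelling, fell. The promoters of these 3 genes and of Trpm7, the highest channel gene, are shown to compare their CpG content. Each runs from 250 bases before to 50 bases after the first RefSeq start of the gene, on its own strand in GRCm38.p6, with CG dinucleotides, which read the same on both strands, in capitals. They lie at chr11:73233899-73234198 (plus strand, Trpv1), chr11:73267270-73267569 (plus strand, Trpv3), chr5:114658372-114658671 (minus strand, Trpv4) and chr2:126876212-126876511 (minus strand, Trpm7).
Trpv1: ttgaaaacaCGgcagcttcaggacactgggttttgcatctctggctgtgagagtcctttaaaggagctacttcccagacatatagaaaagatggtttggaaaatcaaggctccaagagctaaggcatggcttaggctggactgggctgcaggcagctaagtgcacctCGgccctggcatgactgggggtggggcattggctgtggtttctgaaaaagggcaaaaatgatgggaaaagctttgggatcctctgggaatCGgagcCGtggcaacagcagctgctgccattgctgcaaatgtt
Trpv3: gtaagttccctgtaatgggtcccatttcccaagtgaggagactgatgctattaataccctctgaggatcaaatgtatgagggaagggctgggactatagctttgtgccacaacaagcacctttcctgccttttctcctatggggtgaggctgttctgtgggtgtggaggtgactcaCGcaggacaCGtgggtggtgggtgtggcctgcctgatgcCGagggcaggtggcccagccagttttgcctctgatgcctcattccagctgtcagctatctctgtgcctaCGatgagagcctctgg
Trpv4: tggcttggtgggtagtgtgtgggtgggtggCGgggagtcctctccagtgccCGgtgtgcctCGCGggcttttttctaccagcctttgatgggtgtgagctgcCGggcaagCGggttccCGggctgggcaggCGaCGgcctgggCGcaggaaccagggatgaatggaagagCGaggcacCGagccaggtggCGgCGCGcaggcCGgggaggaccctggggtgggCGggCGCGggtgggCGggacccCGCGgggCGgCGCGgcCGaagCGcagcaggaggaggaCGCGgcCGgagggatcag
Trpm7: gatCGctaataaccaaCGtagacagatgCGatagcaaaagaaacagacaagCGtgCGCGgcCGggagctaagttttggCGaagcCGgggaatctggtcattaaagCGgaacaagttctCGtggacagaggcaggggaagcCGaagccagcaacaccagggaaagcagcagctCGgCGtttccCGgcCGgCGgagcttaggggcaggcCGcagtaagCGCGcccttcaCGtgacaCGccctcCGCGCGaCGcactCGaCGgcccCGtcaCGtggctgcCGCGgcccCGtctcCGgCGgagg

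The windows of Trpv1 and Trpv3 each held 4 CG dinucleotides, beside 30 for Trpv4 and 35 for Trpm7. Of the other TRPV genes, Trpv2, which rose, held 2. Trpv6, which was not called, and Trpv5, which did not pass the filter, held 1 each. At most 4 were found in 9.89% of the 11836 promoters of genes tested and in 38.3% of all 27025 RefSeq promoters, and at least 30 in 21.8% and 11.5%. Promoters were matched for 40 of the 50 channel genes. Their median was 12 CG dinucleotides for the 8 matched genes that rose, 22 for the 19 that fell and 5 for the 9 below the filter. The median was 20 for promoters of all genes tested and 7 for all RefSeq promoters. The range was 2 to 35 among the channel genes that rose and 2 to 43 among those that fell. The count is a property of the sequence, and neither methylation nor binding was measured.

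Trpv3 had 88.7, 80.49, 94.91 and 64.57 normalized counts at P5 and 285.9, 372.1, 336.4 and 217.9 at P12. Ages did not overlap, and the lowest library of each age was P5 library 5 and P12 library 4. Trpv3 rose 3.71-fold (log2 1.89, SE 0.18, edgeR adjusted p = 6e-06). In each age the same library was lowest for the summed oral mucosa markers (Krt13, Krt4, Krt6a, Krt6b and Krt24), which were 796.0 to 1571 at P5 and 12087 to 59121 at P12, with 5 of 5 higher. Their part in the rise was not tested.

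Trpv1 had 21.85, 26.83, 22.41 and 21.17 normalized counts at P5 and 67.45, 64.97, 90.81 and 91.36 at P12, with no overlap. It rose 3.38-fold (log2 1.76, SE 0.21, edgeR adjusted p = 3.4e-05). Trpv1 is best known from sensory neurons, and the neuron marker sum given above was lower at P12. Its relation to the level of Trpv1 was not tested.

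Trpv2, a channel of immune and many other cells, had 88.7, 96.15, 127.9 and 132.3 normalized counts at P5 and 206.8, 179.7, 173.3 and 179.7 at P12. Every P12 library was above every P5 library, and the log2 rise was 0.73 (SE 0.15, edgeR adjusted p = 0.0017). Leukocyte and macrophage markers (Ptprc, Cd68, Csf1r and Adgre1) summed to 742.0 to 1057 at P5 and 1158 to 1513 at P12, with 3 of 4 higher, and their part in the rise of Trpv2 was not tested.

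Trpv4 had 466.7, 382.3, 527.3 and 373.6 normalized counts at P5 and 364.4, 345.1, 296.5 and 297.2 at P12. Its highest P12 library was just below the lowest P5 library. Trpv4 fell by 0.42 on the log2 scale (SE 0.12, edgeR adjusted p = 0.012), and its value was -0.04 under total count scaling, where it was not called (adjusted p = 0.79). Per kilobase, the share of Trpv4 in the summed TRPV level was 55.0% to 63.6% at P5 and 33.9% to 40.7% at P12, and that of Trpv3 was 6.64% to 8.88% and 19.3% to 28.6%.

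Trpv6 and Trpv5 are the calcium-selective channels through which gut and kidney epithelia take up calcium. Trpv6 ranged from 74.9 to 113.3 normalized counts at P5 and from 57.38 to 83.4 at P12, and its log2 fold change of -0.47 (SE 0.19, edgeR adjusted p = 0.051) was not called. It lay on the other side of the threshold in 4 alternatives, among them those without P5 library 3 (-0.58, adjusted p = 0.026) and without P12 library 3 (-0.57, adjusted p = 0.037). Trpv5 had 0 counts in every P5 library and 1, 8, 0 and 0 at P12, at least 2.19-fold higher than a floor of 3 counts over the P5 group, with nearly all of its counts from P12 library 2. The log2 ratio of Trpv6 to Trpv4 was -2.19 ± 0.35 at P5 and -2.23 ± 0.35 at P12 (SD, n = 4 each), and the difference of -0.04 was within the spread between libraries (exact permutation test, two-sided p = 0.857).

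Trpa1, the receptor for mustard oil and other irritants, was the only Trpa gene. It had at most 11 counts, in P12 library 2, and did not pass the filter.

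TRPC channels, which open downstream of phospholipase C, changed in both directions. The lowest log2 fold changes of all channel genes were those of Trpc5 and, below, Cacng8, whose order turned without P12 library 4 (-5.88 and -5.95). Trpc5 had 71.99, 102.9, 60.64 and 112.2 normalized counts at P5 and 3.666, 0, 0 and 3.012 at P12. Its raw counts were 300 over the P5 libraries and 8 over the P12 libraries, a ratio of 51.4 with a 95% counting interval of 25.7 to 120. The log2 fold change was -5.57 (SE 0.54, edgeR adjusted p = 5.8e-06).

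Trpc4, whose subunits assemble with those of Trpc5, had 169.7, 174.4, 167.4 and 314.4 normalized counts at P5 and 12.46, 12.66, 9.266 and 15.06 at P12. P5 library 5 was far above the other 3 of its age, and all P12 libraries were far below. Trpc4 was 16.6-fold lower at P12 (log2 -4.06, SE 0.28, edgeR adjusted p = 3.7e-07). Trpc1, a subunit that joins Trpc4 and Trpc5 in mixed channels, had 231.4, 149.8, 193.8 and 184.2 at P5 and 82.85, 76.78, 97.3 and 108.4 at P12. Ages did not overlap for Trpc1, and the log2 fold change was -1.06 (SE 0.17, edgeR adjusted p = 0.00024).

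Trpc6, a channel opened by diacylglycerol, moved the other way. It had 27.0, 26.83, 43.5 and 26.46 normalized counts at P5 and 125.4, 132.5, 80.62 and 74.3 at P12, and rose 3.36-fold (log2 1.75, SE 0.26, edgeR adjusted p = 0.00018). P12 libraries 1 and 2 were the highest and P12 library 4 the lowest of its age. Trpc7, a close relative of Trpc6, ranged from 8.468 to 36.0 at P5 and from 1.688 to 17.07 at P12, and was not called (-1.02, adjusted p = 0.14). It was called without P5 library 5 and P12 library 4 (-1.52, adjusted p = 0.022) and over the 6 libraries with shared replicate numbers without the block (-0.95, adjusted p = 0.043).

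Smooth muscle and vessels are known sites of Trpc6. Smooth muscle and pericyte markers (Acta2, Myh11, Rgs5 and Cspg4) summed to 3015 to 3523 at P5 and 8207 to 9638 at P12, with 3 of 4 higher, and the 4 endothelial markers (Pecam1, Cdh5, Kdr and Tek), all higher, summed to 2107 to 2532 and 4061 to 4324. Both sums had their highest P12 value in library 4, where Trpc6 was lowest at P12, but their members were split. Of the P12 libraries, library 4 had the highest Kdr (1771) and Rgs5 (6296). It had the lowest Pecam1 (1209), Tek (293.2) and Myh11 (111.4), and Cdh5, Acta2 and Cspg4 were neither highest nor lowest in it. The sums of oral mucosa markers (47565, 59121, 38574 and 12087 at P12) and of osteoclast markers (Acp5, Ctsk, Calcr and Ocstamp, 1030 to 1662 at P5 and 6300, 7863, 4918 and 3128 at P12, with 3 of 3 tested higher) had the P12 library order of Trpc6. So did the sums of leukocyte and macrophage markers (1487, 1513, 1258 and 1158 at P12), erythroid markers (Hbb-bs and Hba-a1) and Merkel cell markers. The erythroid sum was 15780 to 30025 at P5 and 14675 to 17618 at P12. Among these sums that shared the P12 order, only the Merkel cell sum also had the P5 library order of Trpc6. That P5 order is weak, since Trpc6 lay within 26.46 to 27.0 in P5 libraries 1, 3 and 5. The Merkel cell sum was mostly Sox2, which was not called (log2 0.25, edgeR adjusted p = 0.59), and it overlapped between the ages (43.4 to 84.36 at P5 and 26.1 to 85.22 at P12). The part of any of these cell types in the rise of Trpc6 was not tested.

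Trpc2, the pheromone channel, had 0 counts in all libraries, and its exons are wholly shared with the annotated genes Xndc1 and Xntrpc. How shared reads were counted is not given in the sources used here.

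**Figure D3:**
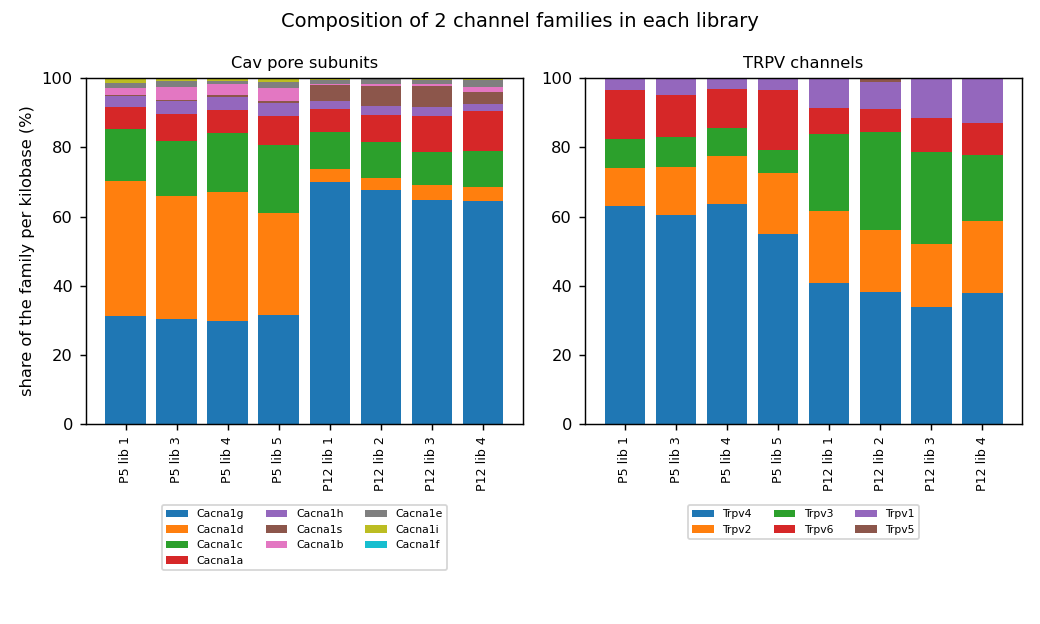
Share of each gene in the summed normalized count per kilobase of the Cav pore subunits and of the TRPV channels, in percent, for each of the 8 libraries. Cacna1g takes 64.6% to 69.9% of the pore subunits at P12 beside 29.6% to 31.5% at P5, and Trpv4 takes 33.9% to 40.7% of the TRPV channels at P12 beside 55.0% to 63.6% at P5.

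Pore subunits of Cav channels fell at P12 in 7 of 9 genes tested. Cacna1d, the pore of an L-type channel that opens at low voltage in pacemaker, endocrine and hair cells, had 1752, 1759, 1664 and 1524 normalized counts at P5 and 110.0, 84.38, 103.8 and 91.36 at P12. Libraries of each age lay close together, and the level was 17.1-fold lower at P12 (log2 -4.10, SE 0.10, edgeR adjusted p = 1.9e-10). Per kilobase, Cacna1d had rank 4 of 38 at P5 (132.7 normalized counts per kilobase) and rank 23 at P12 (7.715). Of its exonic bases, 4.7% overlap the antisense gene Chdh, which was not called (log2 0.21, adjusted p = 0.52).

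Cacna1c, the L-type pore of heart and smooth muscle, had 1134, 1334, 1252 and 1704 normalized counts at P5 and 503.0, 406.7, 383.6 and 396.6 at P12. It was 3.21-fold lower, with no overlap (log2 -1.68, SE 0.13, edgeR adjusted p = 9.7e-07). The fall of Cacna1d was larger: the log2 ratio of Cacna1d to Cacna1c was 0.32 ± 0.34 at P5 and -2.11 ± 0.16 at P12 (SD, n = 4 each), a difference of -2.42 (exact permutation test, two-sided p = 0.0286, adjusted over 5 pairs 0.0357).

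Cacna1s, the L-type pore and voltage sensor of skeletal muscle, was the only pore gene that rose. It had 5.142, 11.18, 15.82 and 13.76 normalized counts at P5 and 65.25, 70.03, 72.28 and 40.16 at P12, a 5.34-fold rise (log2 2.42, SE 0.33, edgeR adjusted p = 7.7e-05). The 7 skeletal muscle markers summed to 782.2 to 1371 at P5 and 870.3 to 1681 at P12, and were split, with Myh4 and Myh1 higher, Acta1, Ckm, Mylpf and Tnnt3 lower and Ttn not called. P12 library 4, in which Cacna1s was lowest at P12, had the highest Myh4 (1111) and Myh1 (170.7) and the lowest Mylpf (69.28) of all libraries. Acta1, Ckm, Tnnt3 and Ttn were neither highest nor lowest of their age in it. The part of skeletal muscle RNA in the rise of Cacna1s was not tested. Exons of Cacna1s overlap an antisense gene, Gm37759, over 20% of their bases, and that gene had at most 5.142 normalized counts at P5 and 0.7332 at P12. Cacna1f, the L-type pore of the retina, had at most 3 counts and did not pass the filter.

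Among the neuronal pores, Cacna1b, of the N-type channel that triggers transmitter release, had 80.99, 140.9, 110.7 and 154.5 normalized counts at P5 and 9.531, 9.282, 13.9 and 27.11 at P12. All P12 libraries were lower, 8.32-fold on the fitted scale (log2 -3.06, SE 0.34, edgeR adjusted p = 1.9e-05). Within each age its libraries had the same order as the neuron marker sum, which was 1948, 2711, 2118 and 2940 at P5 and 679.6, 610.9, 756.1 and 937.7 at P12. Tubb3, the highest of these markers, had another order at P12 (568.9, 525.7, 543.0 and 479.9). Snap25 (80.65, 64.97, 158.5 and 328.3 at P12), Syt1 and Elavl4 had the P12 order of the sum, and Nefl and Scn9a did not. At P5, Tubb3 and Elavl4 had the order of the sum, and Snap25, Syt1, Nefl and Scn9a did not. Whether neuronal RNA had a part in the fall was not tested.

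Cacna1a, the P/Q-type pore of synapses, had 261.0, 347.7, 271.5 and 395.9 normalized counts at P5 and 173.0, 160.3, 219.6 and 233.9 at P12. Cacna1e, the R-type pore, had 117.0, 172.2, 72.5 and 158.8 at P5 and 69.65, 63.28, 50.04 and 85.34 at P12, where P12 library 4 was above P5 library 4. Both were lower at P12 (Cacna1a log2 -0.71, SE 0.16, adjusted p = 0.0033; Cacna1e log2 -0.96, SE 0.26, adjusted p = 0.0085, edgeR), and both missed the threshold under total count scaling (-0.34 and -0.60). Cacna1e also missed it over the 6 libraries with shared replicate numbers, with the block (-0.78, adjusted p = 0.10) and without it (-0.83, adjusted p = 0.062).

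T-type pores open near the resting potential and were divided. Cacna1g had 1124, 1202, 1051 and 1305 normalized counts at P5 and 1583, 1260, 1223 and 1174 at P12, and the ages overlapped. Its log2 fold change of 0.16 (SE 0.10, edgeR adjusted p = 0.19) was not called, and it was called under total count scaling (0.54, adjusted p = 0.0017) and without P5 library 5 and P12 library 4 (0.27, adjusted p = 0.026). Cacna1h had 104.1, 136.4, 126.5 and 152.4 at P5 and 50.59, 48.94, 49.11 and 39.16 at P12, so that it fell by 1.46 on the log2 scale (SE 0.17, edgeR adjusted p = 2.8e-05).

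The log2 ratio of Cacna1h to Cacna1g was -3.17 ± 0.17 at P5 and -4.77 ± 0.16 at P12 (SD, n = 4 each), a difference of -1.60 (exact permutation test, two-sided p = 0.0286, adjusted over 5 pairs 0.0357). Cacna1i, the T-type pore of the thalamus, had 41.14, 29.07, 25.05 and 46.57 normalized counts at P5 and 8.065, 4.219, 6.487 and 8.032 at P12, 5.23-fold lower (log2 -2.39, SE 0.33, edgeR adjusted p = 9.3e-05).

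The pore subunits together summed to 350.4 to 409.2 normalized counts per kilobase at P5 and 179.3 to 223.4 at P12, with no overlap. At P5 the sum was shared by Cacna1d (29.5% to 39.1%), Cacna1g (29.6% to 31.5%) and Cacna1c (15.1% to 19.7%). At P12 Cacna1g made up 64.6% to 69.9%, while Cacna1c made up 9.71% to 10.6%, Cacna1a 6.78% to 11.4%, Cacna1s 3.42% to 5.92% and Cacna1d 3.64% to 4.41%. The level of Cacna1g itself was not called different between the ages.

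All 4 β subunit genes fell. Cacnb3, by far the highest of them, had 1797, 1801, 1654 and 2235 normalized counts at P5 and 1285, 1030, 1106 and 877.5 at P12. Ages did not overlap, and P5 library 5 was the highest and P12 library 4 the lowest of all 8. Cacnb3 fell by 0.80 on the log2 scale (SE 0.12, edgeR adjusted p = 0.00017). Its share of the summed β level per kilobase was 83.4% to 85.8% at P5 and 84.8% to 89.5% at P12.

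Cacnb1, the β subunit of skeletal muscle, had 289.3, 294.0, 261.0 and 445.6 normalized counts at P5 and 145.9, 174.7, 159.4 and 142.6 at P12. It fell by 1.05 (SE 0.16, edgeR adjusted p = 0.00022), opposite to the rise of Cacna1s. Cacnb2, the main β subunit of heart, had 100.3, 104.0, 83.05 and 80.44 at P5 and 41.06, 32.06, 25.95 and 56.22 at P12, and fell by 1.25 (SE 0.24, edgeR adjusted p = 0.00099). Both had every P12 library below every P5 library.

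Cacnb4, a β subunit of brain, had 29.57, 68.2, 36.91 and 55.04 normalized counts at P5 and 19.8, 25.31, 15.75 and 32.13 at P12. P12 library 4 was above P5 library 1. Cacnb4 fell by 1.04 (SE 0.32, edgeR adjusted p = 0.016) and was not called without P5 library 3 (-0.82, adjusted p = 0.065) or under total count scaling (-0.68, adjusted p = 0.081). Nor was it called over the 6 libraries with shared replicate numbers, with the block (-0.96, adjusted p = 0.10) or without it (-1.01, adjusted p = 0.068). Of its exonic bases, 16% overlap an antisense gene, A430018G15Rik, that had at most 2.236 normalized counts in any library.

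All 3 α2δ subunit genes tested fell, and the largest change was that of the least abundant. Cacna2d2, which is prominent in cerebellum, had 59.14, 91.67, 108.1 and 142.9 normalized counts at P5 and 19.06, 11.81, 19.46 and 51.2 at P12. Its highest P12 library, library 4, was just below P5 library 1, and the level was 4.03-fold lower (log2 -2.01, SE 0.41, edgeR adjusted p = 0.0015). P12 library 4 also had the highest neuron marker sum of its age, although Tubb3, the highest of these markers, was lowest in it.

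Cacna2d1, the broadly expressed α2δ subunit that binds gabapentin, had 402.4, 495.3, 419.2 and 454.1 normalized counts at P5 and 370.3, 314.7, 327.1 and 343.4 at P12. Cacna2d3 had 231.4, 216.9, 207.0 and 221.2 at P5 and 189.9, 140.9, 159.4 and 176.7 at P12. Each fell by 0.39 with no overlap (SE 0.09 and 0.12, edgeR adjusted p = 0.0032 and 0.013), and under total count scaling the values were -0.01 and -0.02, neither called. Over the 6 libraries with shared replicate numbers, Cacna2d3 was not called with the block (-0.32, adjusted p = 0.092) or without it (adjusted p = 0.064). Cacna2d4 had at most 12 counts and did not pass the filter.

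Among γ genes, 3 of the 4 tested fell and 1 rose. Several of these genes encode partners of AMPA-type glutamate receptors and not of Cav channels. Cacng8, one of these partners, had 16.71, 30.19, 15.82 and 34.93 normalized counts at P5 and 0, 0, 0.9266 and 2.008 at P12. Its raw counts were 85 over the P5 libraries and 3 over the P12 libraries, a ratio of 38.8 with a 95% counting interval of 12.8 to 192 (log2 -4.99, SE 0.65, edgeR adjusted p = 5.9e-05). Its neighbor on chromosome 7, Cacng7, lies 22.5 kb away and had 120.8, 126.3, 139.7 and 164.1 at P5 and 239.7, 180.6, 162.2 and 153.6 at P12. That rise by 0.42 (SE 0.17, edgeR adjusted p = 0.049) came with overlapping ages and was not called in 10 of 18 alternatives, such as without P12 library 1 (0.26, adjusted p = 0.17).

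Cacng4, another AMPA receptor partner, had 158.1, 190.1, 137.1 and 179.9 normalized counts at P5 and 30.06, 39.66, 49.11 and 47.19 at P12, 4.03-fold lower with no overlap (log2 -2.01, SE 0.19, edgeR adjusted p = 4.8e-06). Cacng2, known as stargazin, had 12.86, 49.19, 29.0 and 32.81 at P5 and 1.466, 1.688, 17.61 and 19.08 at P12. P12 libraries 3 and 4 were above P5 library 1, the log2 fold change was -1.70 (SE 0.67, edgeR adjusted p = 0.048), and it was not called in 7 of 17 alternatives, the leave-one-out fits without P5 library 3, 4 or 5 or P12 library 1 or 2 among them (-1.31 to -1.73). The other 4 γ genes did not pass the filter, with at most 15 counts for Cacng5, 11 for Cacng3, 8 for Cacng1, the γ subunit of skeletal muscle, and 4 for Cacng6.

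Piezo1, the stretch-activated channel of vessels, red blood cells and many epithelia, had 1486, 1555, 1426 and 1677 normalized counts at P5 and 2452, 2477, 2304 and 2064 at P12. No P5 library reached the lowest P12 library, and the rise was 1.51-fold (log2 0.60, SE 0.08, edgeR adjusted p = 4.8e-05). Of its exonic bases, 24.6% overlap the antisense gene Ctu2, which ranged from 244.8 to 371.7 at P5 and 261.7 to 305.8 at P12 and was not called (log2 -0.10, adjusted p = 0.55). Whether reads were assigned by strand is not given in the sources used here.

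Piezo2, the touch receptor of sensory neurons and Merkel cells, had 199.3, 235.9, 170.0 and 218.0 normalized counts at P5 and 194.3, 189.9, 217.8 and 234.9 at P12. Both ages overlapped fully, and the log2 fold change was 0.02 (SE 0.13, edgeR adjusted p = 0.91). Under total count scaling it was 0.39 (adjusted p = 0.016). The log2 ratio of Piezo2 to Piezo1 was -2.90 ± 0.14 at P5 and -3.47 ± 0.26 at P12 (SD, n = 4 each), a difference of -0.57 (exact permutation test, two-sided p = 0.0286, adjusted over 5 pairs 0.0357). Merkel cell markers (Atoh1, Krt20 and Sox2) summed to 43.4 to 84.36 at P5 and 26.1 to 85.22 at P12.

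Levels per kilobase of gene length ordered the channels as follows. At P5 Trpm7 (1780), Cacnb3 (466.8), Piezo1 (154.6), Cacna1d (132.7), Cacna1g (115.4), Trpv4 (107.3) and Trpm4 (103.5) were the highest, and from Cacna1d downward the ranges of neighbors in this list overlapped. At P12 the highest were Trpm7 (2267), Cacnb3 (268.0), Piezo1 (233.9), Cacna1g (129.2), Trpv4 (79.93), Cacng7 (75.39) and Trpm4 (55.42), and neighbors overlapped in range from Cacnb3 to Piezo1, from Trpv4 to Cacng7 and from Cacng7 to Trpm4. Trpv3 moved from rank 21 of 38 to rank 8, and Trpc6 from rank 31 to rank 13.

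**Figure D4:**
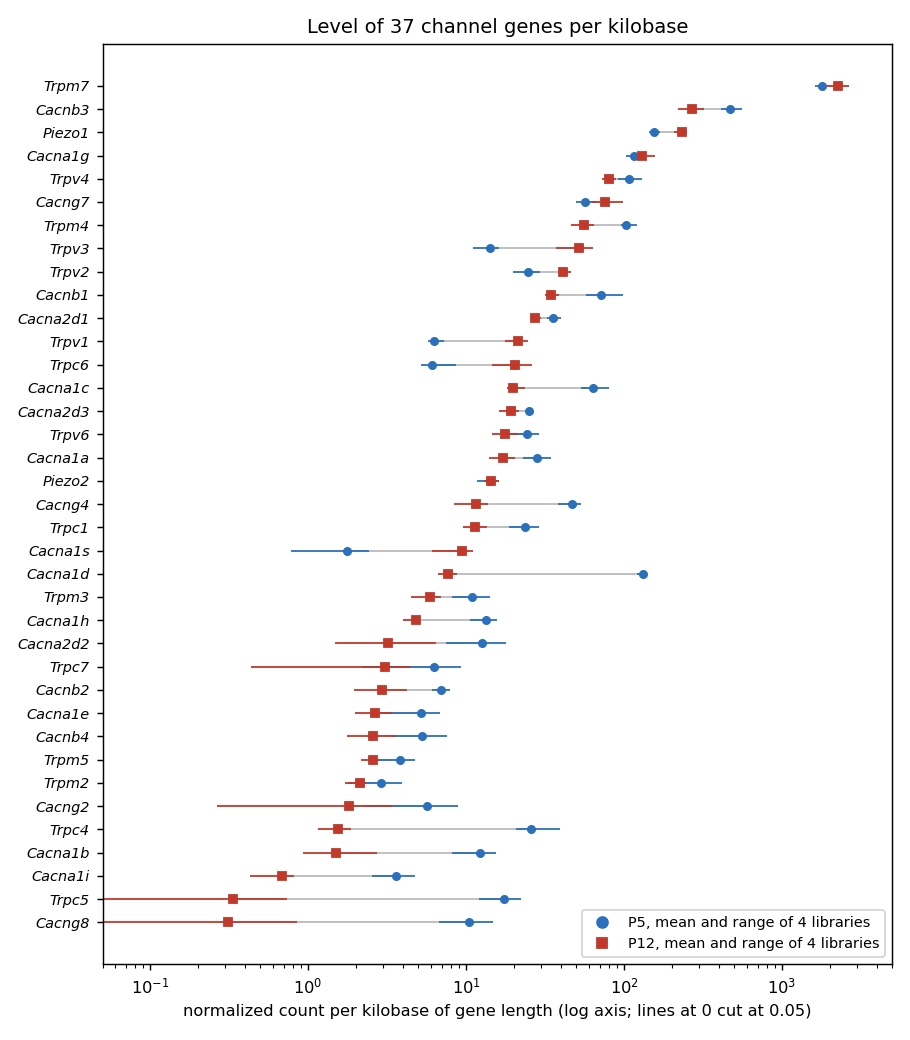
Normalized count per kilobase of gene length of 37 tested channel genes, on a log axis, with the mean (circle for P5, square for P12) and the range of 4 libraries. The genes are ordered by their P12 mean, Trpm7 stands above the rest at both ages, and Cacna1d drops from 132.7 to 7.715.

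Other genes of calcium handling were read from lists of partners and relatives. Among partners and regulators of these channels, 12 of 29 tested rose and 7 fell, with a median log2 fold change of 0.16. The share called was 65.5%, beside 57.2% of all genes tested. The largest rises were Mdfic (2.48), which binds Piezo channels, Cnnm2 (2.31), of a family of magnesium transport proteins, and Rem1 (2.10), a small GTPase that restrains Cav channels. The largest falls were Fam155a (-3.89) and Unc80 (-1.83), subunits of the sodium leak channel complex, and Stac3 (-1.40), which binds the skeletal muscle Cav channel. Of the same sodium leak channel complex, Unc79 was called higher (0.42, edgeR adjusted p = 0.035). Nalcn was not called (-0.47, edgeR adjusted p = 0.16). Stac3 had 721.1 to 971.7 normalized counts at P5 and 278.1 to 354.0 at P12, a direction opposite to that of its partner Cacna1s.

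Among endolysosomal and polycystin relatives of TRP channels, 2 of 7 tested rose, Pkd2 (0.31) and Mcoln1 (0.29), and 3 fell, Tpcn1 (-1.04), Tpcn2 (-0.58) and Pkd2l2 (-0.36). The share called was 71.4%. Tpcn1 and Tpcn2 encode cation channels of endosomes and lysosomes, and Tpcn1 went from 2341 to 3114 at P5 to 1187 to 1315 at P12.

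Among genes of calcium entry, release and extrusion, 14 of 37 tested rose and 12 fell, with a median of -0.12, and the share called was 70.3%. The largest rises were Slc24a4 (3.46), the sodium-calcium-potassium exchanger of maturation ameloblasts, Mcub (2.93), a subunit that dampens mitochondrial calcium uptake, and Itpr2 (2.64), an inositol trisphosphate receptor. The largest falls were Slc24a3 (-3.33), Itpr1 (-3.12) and Slc8a2 (-2.41). Itpr1 had 9037 to 11515 normalized counts at P5 and 1054 to 1371 at P12, while Itpr2 had 272.0 to 431.1 and 1803 to 2447.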

How the data were processed

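RNA was purified from microdissected first molars after soft tissue was removed from the pulp chambers, and polyA-selected libraries were sequenced. The authors deposited raw read counts per gene, with symbols, coordinates and lengths. Their processing notes name CASAVA and the build mm39, but the coordinates are of GRCm38: 53462 of 54532 genes, and 48 of the 50 channel genes, have the same coordinates in GENCODE M21. The aligner, the counting program and its use of strand are not given in the sources used here. The other experiments of the study were not analysed here.

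Columns were assigned to libraries by the titles in the labels. After filterByExpr and TMM, the 16440 genes that remained were fitted together in edgeR 4.0.16 (R 4.3.3) by its quasi-likelihood test with age as the only term, and called at a Benjamini-Hochberg adjusted p under 0.05. Normalized counts refer to an average effective size of 19006280, and levels between genes are given per kilobase of the deposited gene length. Paralog ratios were log2 with a pseudocount of 1, compared by two-sided exact permutation tests. Counting intervals are 95% exact (Clopper-Pearson) and cover counting error only. No library duplicated another of its age: the chi-square per degree of freedom of a pair was 4.76 to 74.55. Labels do not say whether pools came from separate litters, so that p-values measure the spread between these pools.

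Simulated data over 16440 genes held 100 tested genes changed by 1 and 99 changed by 2 on the log2 scale. Of these, edgeR recovered 73.0% and 93.9%, and 11 of its 177 calls were of unchanged genes. Far fewer genes were changed there than the 57.2% called in the real comparison, so that these shares may not hold for it. The study names DESeq2, which was an alternative (1.42.0), beside limma-voom (limma 3.58.1), other scalings, other filters, other thresholds, each library left out in turn and the replicate number as a block. Leaving out P5 library 5 and P12 library 4 together was added after seeing the data. Exon overlaps are from GENCODE M21, and promoters from the RefSeq table.

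Results of 1 channel gene are not reported here, although it is in the counts. Every other channel gene that was called, or had a mean normalized count of at least 100, is given with each library's value, the other tested genes with their range and those below the filter with their highest count. From each list of related genes, at most the 3 largest rises and 3 largest falls are named, with Unc79 and Nalcn given beside their complex. The channel genes and the lists were chosen with earlier results of these data known.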

Additional observations from a re-analysis of the deposited data

Results flagged for a closer look

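In 5 of 76 groups of 4 libraries, 1 library of a channel gene stood far from the other 3 of its age, where chance gives about 3.8 (1 in 20). At P5, library 5 had 314.4 normalized counts of Trpc4 beside 167.4 to 174.4 in the others, and 1315 of Trpm4 beside 1041 to 1070. Both genes fell at P12, and every P12 library was also below the other 3 P5 libraries. P5 library 4 had 43.5 normalized counts of Trpc6 beside 26.46 to 27.0 in the others. At P12, library 4 had 39.16 of Cacna1h beside 48.94 to 50.59, and library 1 had 21.26 of Trpm2 beside 27.84 to 29.12. Leaving out the library concerned did not turn the direction of any of these 5 genes.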

How the results depend on the processing

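Of the 32 called channel genes, 22 kept their direction and call in every alternative run for them and 10 lost the call in at least 1. Leaving out 1 library at a time gave 7 to 8 channel genes higher and 22 to 24 lower. Total count scaling gave 15 channel genes lower, with 8885 genes higher and 2330 lower over the whole table, 4 partners and regulators lower, and 4 endolysosomal and polycystin relatives higher and 1 lower. Under it Cacna1a, Cacna1e, Cacna2d1, Cacna2d3, Cacnb4, Cacng2, Trpm3 and Trpv4 were not called. Requiring a log2 change of 1 or more in size left 5 channel genes higher and 15 lower, 1864 and 1677 over the whole table, 7 and 3 partners and regulators, 0 and 1 endolysosomal and polycystin relatives, and 9 genes of calcium entry, release and extrusion higher. At an adjusted p under 0.01, 1 endolysosomal and polycystin relative was higher.

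Piezo2 ranged from -0.06 to 0.08 when 1 library was left out, and changed sign without P5 library 1 (-0.0), without P5 library 4 (-0.06), without P12 library 4 (-0.05) and without both P5 library 5 and P12 library 4 (-0.02). Without 1 library, 3 against 4 allow no exact p below 0.0571, and the ratio differences then ranged from -0.68 to -0.49 for Piezo2 to Piezo1, from -1.36 to -1.07 for Trpm4 to Trpm7, from -2.58 to -2.32 for Cacna1d to Cacna1c, from -1.68 to -1.54 for Cacna1h to Cacna1g and from -0.18 to 0.11 for Trpv6 to Trpv4. That last difference was 0.11 without P5 library 5, 0.04 without P12 library 1 and 0.07 without P12 library 2. The ratio of Trpm6 to Trpm7 was not run, since Trpm6 did not pass the filter.

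The replicate numbers 1, 3 and 4 occur at both ages, and deviations of same-numbered libraries correlated by 0.045, 0.005 and -0.036. Pairs with different numbers ranged from -0.068 to 0.062. Such correlations cannot tell whether same-numbered libraries shared a litter or a batch, which the labels do not give. With the replicate block over these 6 libraries, 8 channel genes were higher and 20 lower, the same counts as without the block, although Cacng2 was called only with it (adjusted p = 0.043, beside 0.16) and Trpc7 only without it (0.043, beside 0.088 with it). The 10 highest channel genes per kilobase were the same under total count scaling, and without division by length 9 of 10 at P5 and 7 of 10 at P12 were shared. Genes below the filter are limited by depth.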
